A study of Mus musculus with 84 samples.

Results

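H3K27ac peaks of colon epithelium were compared between low-fat fed recipients of bacteria from HFD-fed donors (LFDHFB, 3 libraries) and low-fat fed recipients of bacteria from LFD-fed donors (LFDLFB, 3 libraries), 6 of the 84 samples of the series. The recipients were male C57BL/6 mice that entered germ-free at 6 weeks of age, until stool suspensions of male donors on either diet were given by gavage, 4 times a week for 5 weeks. Both groups were fed the LFD, a 10% fat diet, so that the planned difference between them was the diet of the stool donors. The same design was carried out in recipients on the 60% fat HFD (HFDHFB, 2 libraries, and HFDLFB, 3 libraries), and mice kept on either diet for the long term, 3 libraries per diet and sex, gave 12 further H3K27ac lists. Nothing in the labels tied a library to a cage or a donor, and p-values over libraries then measure only the spread between these samples.

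H3K27ac, acetylation of lysine 27 of histone H3, is written by p300 and CBP and marks active promoters and active enhancers. H3K4me1 marks enhancers whether or not they are active, and HNF4α is a nuclear receptor that binds many enhancers of the absorptive intestinal epithelium. Bacteria in the colon ferment fibre to short-chain fatty acids, one of which, butyrate, is both the fuel of colonocytes and an inhibitor of histone deacetylases. A peak is a stretch of the genome where the authors' peak caller found more reads than background, and the lists hold positions only, so a region without a peak was under the caller's limit rather than free of the mark.

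Overlapping peaks of the 6 lists were merged into 60071 regions. A region with a peak in all 3 libraries of a group and in none of the other is called exclusive here. LFDHFB had 135 exclusive regions, 0.225% of all merged regions, and LFDLFB had 270, or 0.449%, which together made 405, or 0.674%. These regions were chosen by their peaks in the 6 libraries, so the peaks of those libraries describe them and test nothing. Of the exclusive regions, 8 had the same donor pattern in the 5 HFD-fed libraries, which played no part in choosing them, and the middle 300 bases of 4 of these are shown as examples of that pattern, whose frequency over all merged regions is given further on; the LFDLFB-exclusive region with the most bases under peaks, near Kcnh6, is shown with them. The windows are chr7:4158951-4159250 (LFDHFB-exclusive, nearest gene Lilra5), chrX:136329951-136330250 (Cldn2), chr6:38777351-38777650 (Hipk2), chr1:53793751-53794050 (Stk17b) and chr11:105865451-105865750 (Kcnh6), all on the plus strand of mm9 and none in an exon. Capitals mark matches to the short motifs searched, which are spelled out with their frequencies further on.
Lilra5 window: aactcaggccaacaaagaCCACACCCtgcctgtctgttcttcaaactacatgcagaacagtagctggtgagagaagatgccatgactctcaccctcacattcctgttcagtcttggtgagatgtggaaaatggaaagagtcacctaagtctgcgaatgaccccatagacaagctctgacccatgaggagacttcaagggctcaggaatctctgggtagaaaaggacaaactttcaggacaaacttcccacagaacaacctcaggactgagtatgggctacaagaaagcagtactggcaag
Cldn2 window: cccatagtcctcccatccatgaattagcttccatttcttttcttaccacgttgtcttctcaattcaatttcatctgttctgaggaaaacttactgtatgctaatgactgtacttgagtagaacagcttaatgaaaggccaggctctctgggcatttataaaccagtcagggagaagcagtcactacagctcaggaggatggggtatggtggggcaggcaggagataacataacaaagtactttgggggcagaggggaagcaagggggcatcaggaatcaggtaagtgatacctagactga
Hipk2 window: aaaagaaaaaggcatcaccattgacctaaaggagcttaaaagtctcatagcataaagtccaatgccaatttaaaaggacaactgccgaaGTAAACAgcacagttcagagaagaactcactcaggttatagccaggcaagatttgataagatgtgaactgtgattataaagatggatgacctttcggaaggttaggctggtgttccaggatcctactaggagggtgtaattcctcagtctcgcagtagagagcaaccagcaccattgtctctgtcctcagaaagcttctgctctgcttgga
Stk17b window: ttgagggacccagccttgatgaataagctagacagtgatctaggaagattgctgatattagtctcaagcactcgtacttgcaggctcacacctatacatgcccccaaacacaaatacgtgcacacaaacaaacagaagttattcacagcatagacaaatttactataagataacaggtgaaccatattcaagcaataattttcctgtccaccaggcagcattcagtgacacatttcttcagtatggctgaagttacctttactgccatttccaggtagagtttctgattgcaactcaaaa
Kcnh6 window: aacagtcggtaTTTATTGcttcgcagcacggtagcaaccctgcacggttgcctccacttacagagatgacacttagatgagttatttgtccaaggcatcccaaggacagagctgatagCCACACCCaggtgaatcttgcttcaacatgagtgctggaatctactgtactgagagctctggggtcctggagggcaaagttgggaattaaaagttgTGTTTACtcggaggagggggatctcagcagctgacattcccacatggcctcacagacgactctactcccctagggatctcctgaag

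The number and the extent of H3K27ac peaks overlapped between the donor groups. LFDHFB libraries held 43485, 41769 and 42318 peaks and LFDLFB libraries 44556, 45797 and 39684. The LFDLFB libraries held both the highest and the lowest number, and the difference of means, 42524 ± 876 against 43346 ± 3231 (SD, n = 3 each), gave p = 0.700 in a two-sided exact permutation test. Peaks covered 104.6, 98.79 and 102.0 Mb in LFDHFB and 117.2, 110.9 and 93.07 Mb in LFDLFB (p = 0.500, exact permutation test). With 3 libraries against 3 these tests cannot give a p below 0.1. In the HFD-fed recipients the lists held 42486 and 51873 peaks (HFDHFB) and 48889, 46138 and 49147 (HFDLFB), and the donor difference on the LFD, -822 peaks, differed from that on the HFD, -878 peaks, by 57 (p = 0.980, exact permutation test within diet, smallest possible p 0.005).

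Pairs of libraries from 1 donor group and pairs from different groups had overlapping similarity. The Jaccard index, the bases under peaks in both libraries divided by those under peaks in either, ranged from 0.564 to 0.599 over the 6 pairs within a group and from 0.571 to 0.599 over the 9 pairs between groups. The means were 0.582 within and 0.583 between (difference -0.0008, p = 0.900, exact permutation test over the 6 libraries). The least alike pair consisted of LFDLFB replicates 2 and 3.

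All 6 libraries shared 22946 regions, 38.2% of the total, whereas 9196 regions had a peak in a single LFDHFB library and 10430 in a single LFDLFB library. A peak in exactly 3 of the 6 libraries was found at 4071 regions, of which 405, or 9.95%, had all 3 in the same donor group. There are 20 ways to choose 3 of 6 libraries, and a share of 0.1 of them falls within 1 donor group. The number of exclusive regions was thus near the share given by libraries chosen without regard to donor. The size of the excess in LFDLFB varied with the library left out, and LFDLFB kept the larger number except without LFDHFB replicate 2. In these runs the reduced group needed a peak in 2 of 2 libraries and the other group in 3 of 3. The groups were thus called by unlike rules, which itself shifts the numbers. Without LFDHFB replicate 2 the numbers were 516 (LFDHFB) and 506 (LFDLFB), and without LFDHFB replicate 3 they were 472 and 538. Without LFDLFB replicate 3, the library with the fewest peaks, they were 192 and 1149, and without LFDLFB replicate 2 they were 296 and 674. Without LFDHFB replicate 1 they were 378 and 583, and without LFDLFB replicate 1 they were 410 and 577. Looser rules that were alike for both groups, given further on, also left the larger number in LFDLFB.

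**Figure D1:**
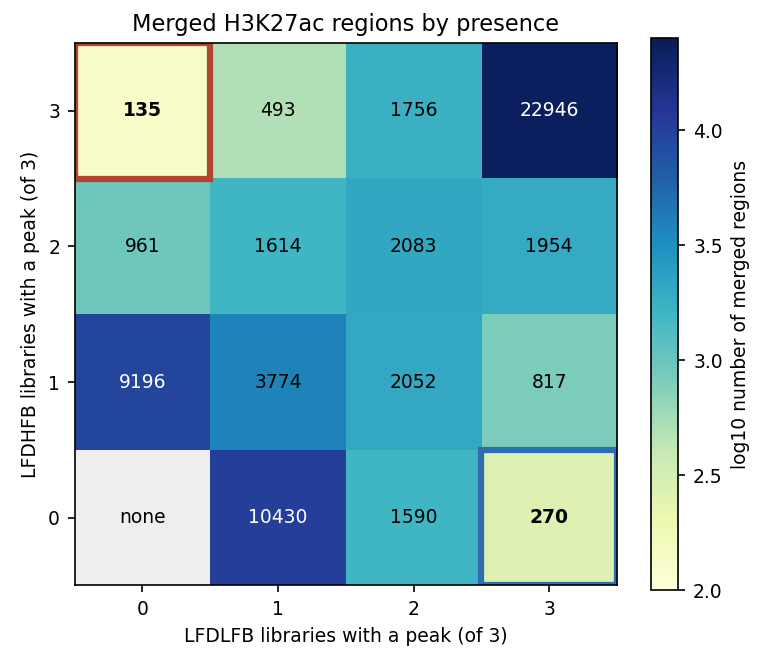
Number of merged H3K27ac regions by how many LFDHFB libraries (vertical axis, of 3) and how many LFDLFB libraries (horizontal axis, of 3) had a peak, coloured by the log10 of the number. The outlined corners hold the 135 LFDHFB-exclusive and 270 LFDLFB-exclusive regions, beside 22946 regions marked in all 6 libraries.

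The exclusive regions were narrower than regions marked in all 6 libraries and less often at gene starts than those. The bases under a peak, averaged over the 3 libraries of the group, had a median of 1267 in either set. At regions marked in all 6 libraries the average over all 6 had a median of 2667. Over all merged regions the median was 800, but that average includes libraries without a peak, so it cannot be compared with 1267. The median merged width was 2000 bp in either set and over all merged regions, and 4000 bp at regions marked in all 6 libraries. A promoter, within 1000 bp of the transcription start site (TSS) of a protein-coding gene, was touched by 12 of the 135 LFDHFB-exclusive regions, which is 8.89% (95% exact Clopper-Pearson interval 4.68 to 15%), and by 26 of the 270 LFDLFB-exclusive regions, 9.63% (6.39 to 13.8%), against 21.8% of all merged regions and 45.6% of those marked in all 6 libraries. Of the 13087 merged regions that touched a promoter, 10458 were marked in all 6 libraries. The share over all merged regions thus rests largely on those, and other regions marked in only some libraries were not set apart for comparison. These intervals cover counting error only. The exclusive regions of the donor groups differed in their place within genes. LFDHFB-exclusive regions reached into an exon outside promoters in 27.4% (20.1 to 35.7%) and were intergenic in 26.7% (19.4 to 35%), while LFDLFB-exclusive regions did so in 14.8% (10.8 to 19.6%) and 37.8% (32.0 to 43.9%). The median distance to the nearest TSS was 13.9 kb and 21.1 kb, against 14.5 kb over all merged regions. Since the peaks themselves chose these regions, the shares are given without a test.

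H3K4me1, mapped in other mice on a long-term LFD, was present at most exclusive regions. At least 2 of 3 male H3K4me1 lists had a peak at 122 of the 135 LFDHFB-exclusive regions (90.4%, interval 84.1 to 94.8%) and at 259 of the 270 LFDLFB-exclusive regions (95.9%, 92.8 to 97.9%), compared with 83.3% of all merged regions. HNF4α peaks, from 2 LFD and 2 HFD males, were rarer in the LFDHFB set than in the LFDLFB set. The 4 HNF4α lists had a peak at 9.63, 6.67, 8.15 and 8.89% of LFDHFB-exclusive regions and at 22.6, 15.6, 24.8 and 17.8% of LFDLFB-exclusive regions, so the share was lower at LFDHFB-exclusive regions in each list. Over all merged regions the same lists gave 28.7, 22.2, 23.7 and 23.6%. These include the regions marked in all 6 libraries, which gave 53.4, 44.7, 45.1 and 45.9%. Other regions marked in only some libraries were not set apart, so the values do not tell which exclusive set departs from them. All 4 lists had a peak at 3 LFDHFB-exclusive regions (2.22%) and at 24 LFDLFB-exclusive regions (8.89%), against 12.4% of all merged regions. The 3 lay in an intron of Pex14, 5.39 kb from the TSS of Stag2 and 121 kb from that of 1500015O10Rik, the last named after its value was seen.

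**Figure D2:**
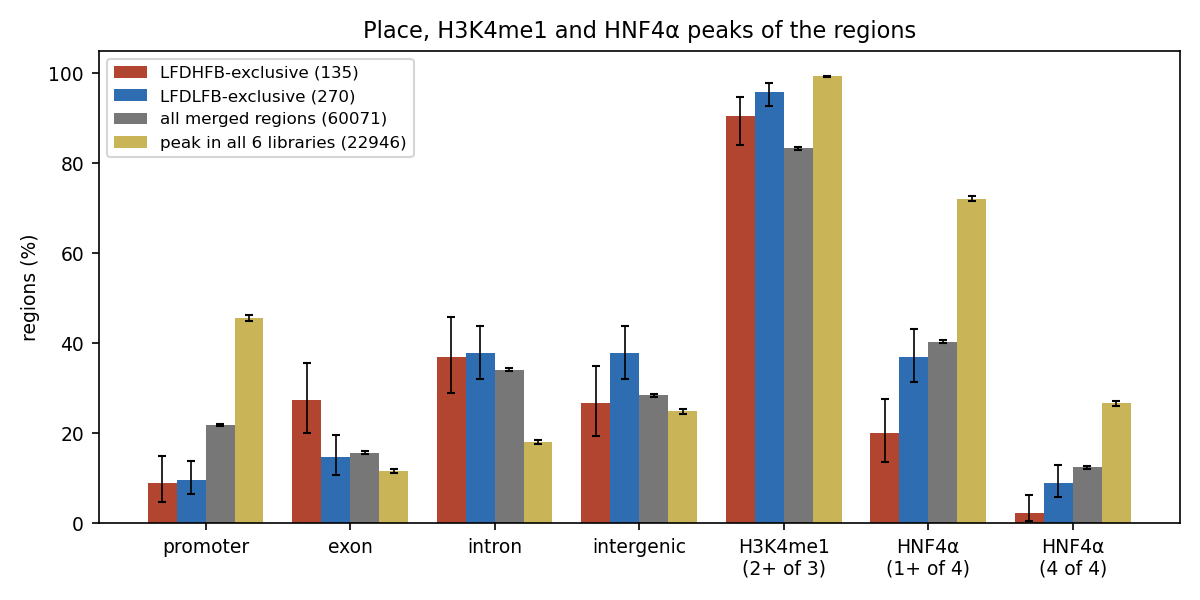
Share of regions in percent (vertical axis) that touch a promoter, an exon outside promoters, an intron or no gene, or that carry an H3K4me1 or HNF4α peak in long-term mice, for the exclusive sets, all merged regions and regions marked in all 6 libraries. Error bars are 95% Clopper-Pearson intervals. HNF4α peaks in at least 1 of 4 lists mark 20% of LFDHFB-exclusive and 37.0% of LFDLFB-exclusive regions. They mark 40.3% of all merged regions, which include the regions marked in all 6 libraries, at 72.1%.

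Short motifs were looked up on both strands in the central 300 bases of each region, with overlaps between motifs allowed. The AP-1 site TGACTCA was found in 11 LFDHFB-exclusive windows (8.15%, interval 4.14 to 14.1%) and in 6 LFDLFB-exclusive windows (2.22%, 0.820 to 4.77%), against 6.77% of all merged regions. The CDX site, TTTATTG or TTTATGG, was found in 10.4% and 15.6% against 11%. The HNF4 site, CAAAGTCCA or CAAAGTTCA, was found in 1 and 8 windows, or 0.741% and 2.96%, against 1.5%. The remaining searches were for the FOX site TGTTTAC (4.44% and 7.04%, all regions 5.18%), the GATA site AGATAAG (8.15% and 4.07%, all regions 4.42%), the KLF site GGGTGTGG (4.44% and 2.96%, all regions 3.41%), the ETS site CCGGAAGT (0 and 2 windows, all regions 0.732%) and the CRE TGACGTCA, which was in no exclusive window and in 0.370% of all windows. In the sequences printed above, the capitals are a KLF match near Lilra5, a FOX match near Hipk2, and a CDX, a KLF and a FOX match near Kcnh6. The Cldn2 and Stk17b windows held no match, although all 4 HNF4α lists had a peak at the region near Stk17b. A match of letters is a description of the window and not a bound site.

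Whether the donor pattern held under the other diet was tested in the HFD-fed recipients. Of the LFDHFB-exclusive regions, 45.9% and 71.1% had a peak in the HFDHFB libraries and 61.5, 52.6 and 73.3% in the HFDLFB libraries. Of the LFDLFB-exclusive regions, 43.7% and 75.6% had one in HFDHFB and 73.0, 65.9 and 67.8% in HFDLFB. The groups overlapped for both sets. Per library, the share of LFDHFB-exclusive minus that of LFDLFB-exclusive regions averaged -1.11 ± 4.71 percentage points in HFDHFB (SD, n = 2) and -6.42 ± 10.4 in HFDLFB (SD, n = 3), and the difference of 5.31 points gave p = 0.600 in an exact permutation test whose smallest p is 0.1. No outcome of this test could have had a p under 0.05. It therefore does not decide whether these regions are linked to the donor type in the 5 HFD-fed libraries.

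In mice on long-term diets, which had received no transplant, LFDHFB-exclusive regions were less often marked than LFDLFB-exclusive regions in each of the 12 libraries. The shares ran from 25.9 to 49.6% for LFDHFB-exclusive and from 46.7 to 65.2% for LFDLFB-exclusive regions. All merged regions, which include those marked in all 6 recipient libraries of the comparison, gave 52.6 to 61.2%. The LFDHFB-exclusive share minus the LFDLFB-exclusive share lay between -29.63 and -11.48 points. Its means were -21.9 ± 6.45 points in HFD and -17.5 ± 4.44 points in LFD mice (SD, n = 6 each), with a difference of -4.32 points (p = 0.230, exact permutation test within sex, smallest possible p 0.005). All 17 libraries outside the comparison had a peak at 27 LFDLFB-exclusive regions and at 1 LFDHFB-exclusive region, which is chr14:57451001-57452800, 21.3 kb from the TSS of Zmym5. None of the 17 had a peak at 2 LFDHFB-exclusive regions (1.48%), in Sh3glb1 and Sft2d1, and at 1 LFDLFB-exclusive region (0.370%), 3.21 kb from the TSS of Aak1. Over all merged regions this share was 14.6%. These regions were named after their values were seen.

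**Figure D3:**
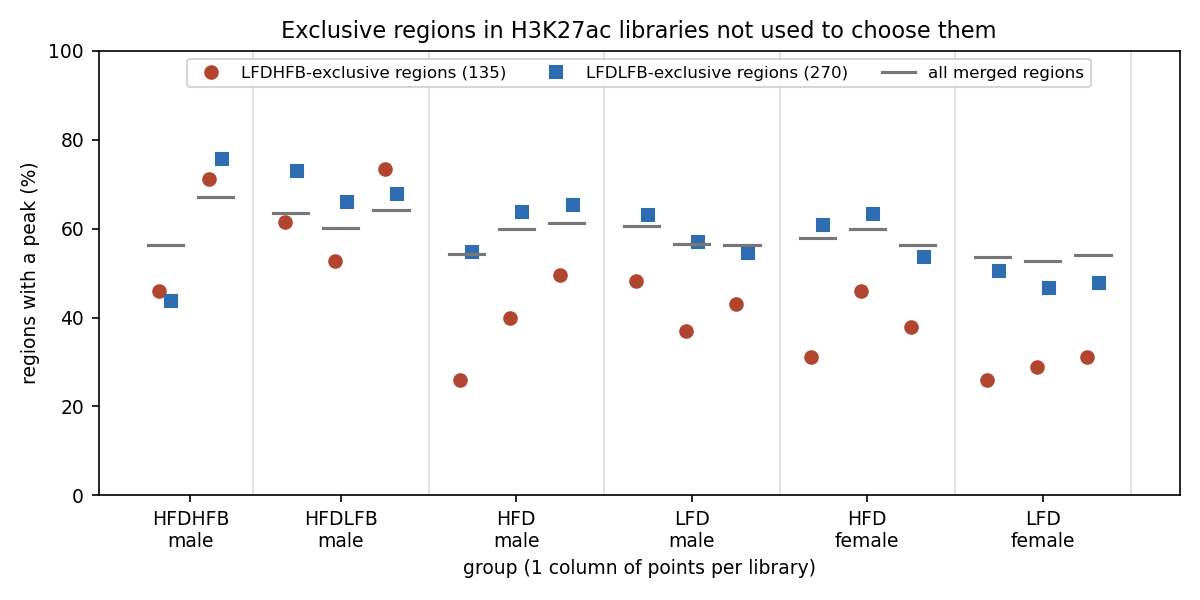
Share of LFDHFB-exclusive (circles) and LFDLFB-exclusive (squares) regions with a peak, in percent (vertical axis), in each of the 17 H3K27ac libraries that did not choose them, by group (horizontal axis); grey lines give the share of all merged regions. In the 12 long-term libraries every circle lies below its square, and in the 5 HFD-fed recipients the order varies.

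Single regions with the same donor pattern in both diets were few. Of the LFDLFB-exclusive regions, 7 (2.59%) had a peak in all 3 HFDLFB libraries and in neither HFDHFB library, and none had the opposite pattern. Of the LFDHFB-exclusive regions, 1 (0.741%) had a peak in both HFDHFB libraries and no HFDLFB library. Over all merged regions these patterns were found at 0.761% and 0.704%. The pattern of the 7 was also found at 5 LFDHFB-exclusive regions (3.70%), where it is opposite to the donor, and which were near Apeh, Trp53inp1, Trhr2, Aim2 and Kctd5. These 5 were named after their values were seen, and the 8 regions with the same pattern are described as values only.

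Among the 7 is a region 5.27 kb from the TSS of Cldn2 (chrX:136328401-136331800, intergenic), which encodes the claudin that forms a pore for cations and water in the tight junction. Peaks covered 1600, 1000 and 2200 bp of it in LFDLFB and 1400, 1000 and 2200 bp in HFDLFB, and none of it in the 5 HFB recipients, as the choice of the region required. In long-term mice, however, 5 of 6 HFD and 5 of 6 LFD libraries had a peak there. Cldn2 RNA was 6.70, 6.34 and 6.41 log2 CPM, counts scaled to library size, in LFDHFB and 6.98, 6.70 and 6.01 in LFDLFB, overlapping ranges (log2 fold change -0.12 ± 0.33 SE, edgeR adjusted p = 0.984). When peaks up to 1000 bp apart were merged, the Cldn2 region was no longer exclusive.

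The region in an intron of Hipk2, a kinase that acts on p53 and other regulators of transcription, was covered by 1400, 2200 and 600 bp in LFDLFB and 1400, 1000 and 800 bp in HFDLFB, and only 1 of 12 long-term libraries had a peak there. In an intron of Fdft1, which encodes squalene synthase of the cholesterol pathway, the covered lengths were 1000, 1000 and 1200 bp in LFDLFB and 600, 1000 and 400 bp in HFDLFB. Stx3, a syntaxin of the apical membrane, had 1200 bp in each LFDLFB library and 1400, 1200 and 800 bp in HFDLFB. The others lay in an intron of Qsox1, a secreted sulfhydryl oxidase, 6.76 kb from the TSS of Pvrl1, which encodes the adhesion protein nectin 1, and 48.2 kb from that of Stk17b, a kinase best known in lymphocytes. RNA of the 7 genes had log2 fold changes between -0.18 (Fdft1) and 0.33 (Pvrl1), none with an unadjusted edgeR p under 0.05. Under the wider merging, the Stx3 and Fdft1 regions were likewise not exclusive, and the other 4 were.

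The LFDHFB region with the same pattern lay 30.3 kb from the TSS of Lilra5, a leukocyte immunoglobulin-like receptor (chr7:4158401-4159800, intergenic). Peaks covered 800, 1000 and 600 bp of it in LFDHFB, 800 and 1400 bp in HFDHFB, and none in the 6 LFB recipients. Lilra5 RNA was near the detection limit in all 6 low-fat fed libraries, from -1.87 to -0.31 log2 CPM.

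**Figure D4:**
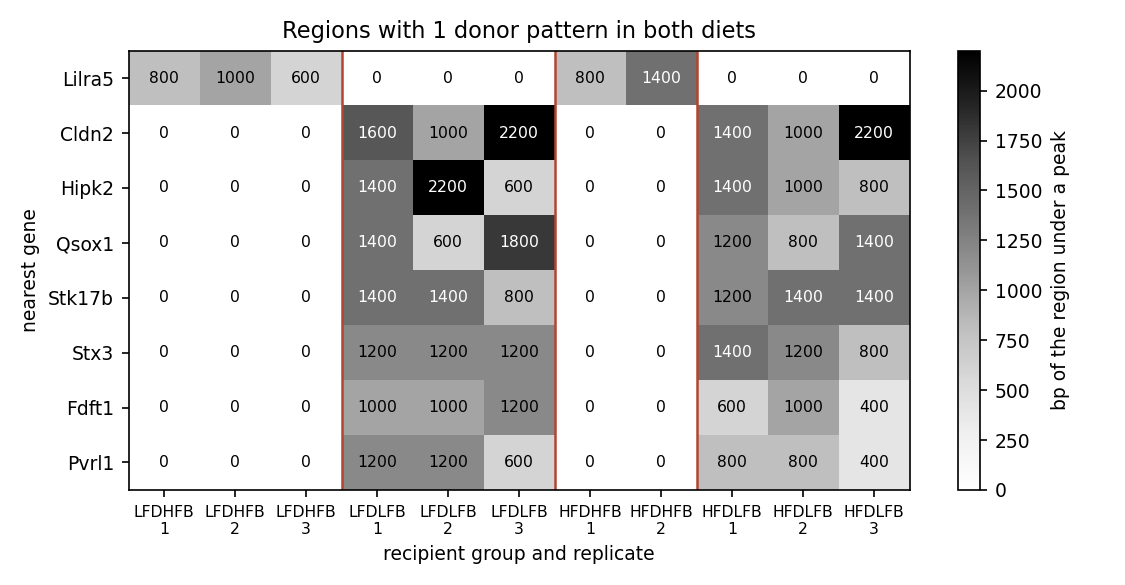
Bases under an H3K27ac peak (grey scale and printed values, bp) at the 8 exclusive regions with the same donor pattern in both diets, named by nearest gene (vertical axis), in each recipient library (horizontal axis). The first row is marked in HFB recipients and the other 7 in LFB recipients on either diet.

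Ranked by the bases under a peak averaged over the 3 libraries, the first LFDHFB-exclusive region reached into an exon of Tpm1, which encodes the actin-binding protein tropomyosin 1 (chr9:66875001-66879000). Peaks covered 1800, 2800 and 3400 bp in LFDHFB, and all 3 HFDLFB libraries and 1 HFDHFB library had a peak there too. Next came regions in Gm608 (2200, 1400 and 3600 bp), which had no peak in the male LFD H3K4me1 lists or the long-term H3K27ac lists, in the translation termination factor gene Etf1, in the peroxisomal import gene Pex14 (1400, 2000 and 2800 bp) and in Tgfbr2, the type 2 receptor of TGF-β (1600, 1200 and 3200 bp). The remaining regions of the first 10 lay in Itpk1 (2 regions), in Ilkap with Fam132b as the nearest TSS, in Zmiz1, a coregulator of transcription, and at the promoter of the small GTPase gene Rasl11a. The promoter region of Rasl11a was covered by 800, 2000 and 2800 bp. With peaks up to 1000 bp apart merged, the regions in Tpm1, Tgfbr2, Ilkap and Zmiz1 were no longer exclusive.

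Both Itpk1 regions had Chga as the nearest TSS, 30.7 and 53.3 kb away. Chga encodes chromogranin A of enteroendocrine cells. They were covered by 1600, 2200 and 2000 bp, and by 1600, 2200 and 1800 bp. The Chga promoter itself had no peak in any of the 6 libraries. Chga RNA was 5.98, 6.79 and 8.23 log2 CPM in LFDHFB and 6.18, 6.85 and 5.57 in LFDLFB, with a single library, LFDHFB replicate 3, above all others (log2 fold change 1.01 ± 0.50 SE, edgeR adjusted p = 0.975). Chd7, a chromatin remodeller, was the only other gene with 2 LFDHFB-exclusive regions nearest to it, both intronic. Merging peaks up to 1000 bp apart removed 1 of the Itpk1 regions and 1 of the Chd7 regions from the exclusive set.

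Promoters exclusive to LFDHFB belonged, beside Rasl11a, to Myo10, an unconventional myosin of filopodia (2000, 1600 and 1000 bp), 1200009I06Rik, Ticam2, an adaptor of Toll-like receptor 4, Zfp651, Inadl, a scaffold of tight junctions (1600, 1200 and 1000 bp), Rhbdf1, an inactive rhomboid, and Clu, clusterin (1600, 400 and 1400 bp). The 4 narrower ones were at Vsig8, Anxa6, Bhlha15 and Gm5614. On the HFD, all 3 HFDLFB libraries had a peak at the Rasl11a, Myo10, Ticam2, Zfp651, Inadl and Bhlha15 promoter regions. Both HFDHFB libraries had one at those of Myo10, Ticam2, Rhbdf1 and Vsig8. At Clu, 1 HFDHFB library and no HFDLFB library had a peak. At Rhbdf1 the LFDHFB-exclusive region (chr11:32108601-32110200) was followed 200 bp downstream in coordinate order by an LFDLFB-exclusive region (chr11:32110401-32112000, 1000, 1400 and 1400 bp). The LFDLFB-exclusive one was named after its values were seen. Merging peaks up to 1000 bp apart joined them, and the LFDHFB-exclusive call ended.

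By the same ranking, the first LFDLFB-exclusive region lay 3.84 kb from the TSS of the potassium channel gene Kcnh6 (chr11:105863201-105868000, intergenic), covered by 4000, 2000 and 2800 bp. It had peaks in all 5 HFD-fed and all 12 long-term libraries, so that the 3 LFDHFB libraries were the only H3K27ac lists used here without one. The same was true of the regions in Cdkal1, a tRNA-modifying enzyme (1800, 1800 and 4200 bp), and 37.7 kb from the TSS of the ubiquitin ligase gene Smurf2 (2400, 1800 and 2600 bp). Others of the first 10 were in introns of Pip5k1b, a phosphoinositide kinase (3600, 1800 and 2200 bp), Nos1ap, Rbl2, a relative of the retinoblastoma protein, and the kinase gene Camk1d, between genes near Sik1 and Gm6816, and at the promoter of the adenylyl cyclase gene Adcy9 (4000, 1200 and 1600 bp). Of these, the Adcy9, Camk1d and Gm6816 regions were not exclusive under the wider merging.

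LFDLFB-exclusive promoters included, beside Adcy9, Parp11 (2200, 1600 and 2200 bp), Chst11, a chondroitin sulfotransferase (2400, 1600 and 1200 bp), Fnip1, a partner of folliculin in AMPK signalling (2200, 800 and 1800 bp), the phosphate transporter gene Slc34a1 (2000, 1800 and 1000 bp), Taar9, Ddx43 and Trim35. The Slc34a1 region had a peak in all 17 other H3K27ac lists. Cdkal1, Nrp2, a receptor for semaphorins and VEGF, and the splicing factor gene Rbfox2 were each the nearest gene of 2 LFDLFB-exclusive regions, 1 of which, in Rbfox2, was lost under the wider merging.

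Of the 237 entries of the pathway and cell class lists, 79.3% had a promoter peak in all 6 libraries, against 49.7% of all protein-coding genes. Without matching for this, 7 entries (2.95%) of these lists were nearest to an LFDHFB-exclusive region within 100 kb and 5 (2.11%) to an LFDLFB-exclusive region. The shares of all protein-coding genes were 0.572% and 1.07%. From the pathway, cell class and marker lists, the LFDHFB-exclusive regions had as nearest genes, within 100 kb, Slc26a3, the chloride-bicarbonate exchanger of surface colonocytes (800, 1400 and 2800 bp), Chga, Ephb2, a Wnt target of the crypt (1400, 1800 and 2000 bp), Foxo1, Nr1i2, the xenobiotic receptor PXR, and the histone deacetylase genes Hdac5 (1000, 1800 and 1600 bp) and Hdac7 (1400, 800 and 1800 bp). The Nr1i2 region was 76.5 kb from its TSS, in an intron of Gsk3b. LFDLFB-exclusive regions had Znrf3, a ubiquitin ligase that restrains Wnt signalling, 3 genes of glucose and insulin signalling, Insr, Pik3r1 and Hk1, as well as Cldn2 and Csf1r. The region in Insr, the insulin receptor gene, was covered by 800, 1000 and 1000 bp, that in Pik3r1, which encodes the regulatory subunit of PI3-kinase, by 1000, 1200 and 1600 bp, and that in Hk1, hexokinase 1, by 1000, 800 and 1200 bp. The Pik3r1, Hk1, Znrf3 and Slc26a3 regions were not exclusive under the wider merging. For the other lists, among them the goblet, intestinal identity factor, fatty acid oxidation, lipid synthesis, antimicrobial, interferon and circadian clock genes, no member was nearest to an exclusive region within 100 kb.

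The promoters of several lists had peaks throughout. The promoters of all 13 intestinal identity factors, all 18 genes of fatty acid oxidation and ketogenesis and all 17 annotated genes of lipid and cholesterol synthesis had a peak in all 6 libraries, as had 9 of 10 AP-1 and ATF3 genes and 17 of 18 genes of the histone acetylation machinery. Of all protein-coding genes, 49.7% had a promoter peak in all 6 libraries. The 10 epithelial markers had a promoter peak in every library, and the 10 markers of enteric neurons and glia in none. Of 12 leukocyte markers, 0 had a promoter peak in the LFDHFB libraries and 1, 2 and 0 in the LFDLFB libraries (Ptprc, Itgam and Coro1a), and their part in the region near Csf1r, a receptor of macrophages, was not tested. Endothelial markers with a peak numbered 2 to 3 of 10, smooth muscle and mesothelial or fat cell markers 1 to 3 of 10 each, and fibroblast markers 0 to 2 of 10, with overlapping numbers in the donor groups. In isolated epithelial cells profiled together, fewer cells of a type and less mark per cell cannot be told apart.

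Peak width, the only graded value in the lists, was compared at the 22946 regions marked in all 6 libraries. With limma on the log2 of the bases under a peak, 0 regions passed an adjusted p of 0.05 in either direction, so that percent called was 0; the smallest adjusted p was 0.995. Without adjustment, 267 regions (1.16%) had a p under 0.05 and were wider in LFDHFB, and 741 (3.23%) were narrower. The excess of narrower regions depended on the scaling of the libraries. With library medians centred the numbers were 576 and 510. The median log2 difference was -0.05, and without LFDLFB replicate 1, the library with the widest peaks, 588 regions were wider and 419 narrower.

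The regions with the smallest p are given as values, since none passed the adjustment. Narrower in LFDHFB was a region 1.26 kb from the TSS of Osta, which encodes a subunit of the bile acid exporter of the basolateral membrane (chr16:32483601-32489800), with 800, 1200 and 1200 bp against 4400, 2600 and 3200 bp in LFDLFB (log2 difference -1.66 ± 0.30, limma adjusted p = 0.995). Near Gimap1, a GTPase gene of lymphocytes, the values were 800, 800 and 800 bp against 2400, 2400 and 2000 bp, and near Pirt they were 800, 800 and 1000 bp against 2600, 2200 and 2400 bp. The others of this direction had Gm7854 and Ppp1r13b as nearest genes. Wider in LFDHFB were regions near Smad1, a transducer of BMP signals (2600, 3000 and 3000 bp against 1400, 1000 and 1200 bp), Ezr, the microvillus protein ezrin (5600, 5400 and 4000 bp against 2800, 1600 and 1400 bp), Slc25a47, Ablim1 and Nt5c3. In each of these 10 regions the groups did not overlap, as was the case at 2.12% of all tested regions in the wider and 4.65% in the narrower direction.

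RNA of the same 4 recipient groups was sequenced, 3 libraries each, from cells scraped off the colon, whereas the ChIP used isolated epithelial cells. In the low-fat fed recipients the 10 smooth muscle markers summed to 2105 to 5408 CPM and the 10 epithelial markers to 11731 to 17875 CPM, and their part in the RNA results was not tested. Library totals ran from 39904191 to 48026846 counts. Of 15893 genes tested, 0 differed between LFDHFB and LFDLFB at an adjusted p under 0.05 (edgeR quasi-likelihood test, percent called 0). Unadjusted, 319 genes (2.01%) were higher in LFDHFB at p under 0.05 and 273 (1.72%) lower, and the study's limit of p under 0.001 was passed by 1 gene in edgeR, which was lower, and by 15 higher and 12 lower genes in DESeq2. The donor effect differed between the diets at an adjusted p under 0.05 for 0 genes.

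RNA of genes nearest an exclusive region was described beside that of all genes tested. Of the 127 genes nearest LFDHFB-exclusive regions within 100 kb, 113 were tested, 4 had an unadjusted p under 0.05 with higher RNA in LFDHFB and 1 with lower RNA, and the median log2 fold change was 0.04. Of the 237 genes nearest LFDLFB-exclusive regions, 215 were tested, 10 were higher and 1 lower in LFDHFB by the same limit, with a median of 0.09. The median over all genes tested was 0.02, and positive fold changes made up 56.6% and 62.8% of the near genes against 53.5% of all genes. Positive fold changes were thus the majority in both near sets and over all genes, whichever group had the peak. The difference of the near sets from all genes was not tested.

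**Figure D5:**
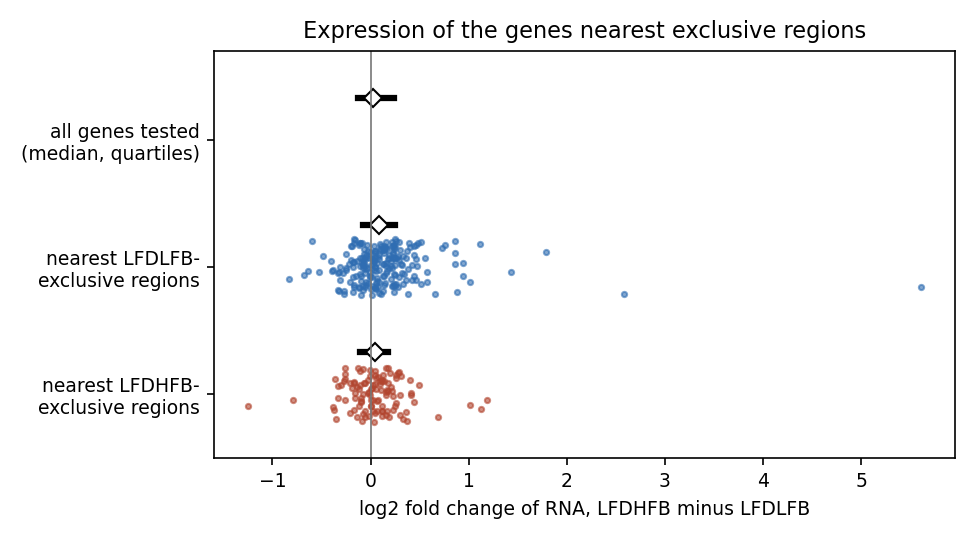
Log2 fold change of RNA, LFDHFB minus LFDLFB (horizontal axis), of tested genes nearest an LFDHFB-exclusive or LFDLFB-exclusive region within 100 kb (points, 1 per gene, spread vertically for display). Diamonds and bars give the median and quartiles, with medians of 0.04, 0.09 and, for all genes tested, 0.02.

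Tfdp2, the dimerization partner of E2F factors, had the third smallest p of all genes and was nearest to an LFDHFB-exclusive region in the neighbouring gene Gk5 (chr9:96072601-96075200, covered by 1800, 1800 and 1600 bp). Its RNA was 5.98, 6.06 and 6.08 log2 CPM in LFDHFB and 5.45, 5.51 and 5.68 in LFDLFB, which did not overlap (log2 fold change 0.49 ± 0.12 SE, edgeR adjusted p = 0.975). In the HFD-fed recipients its RNA was 5.81, 5.58 and 5.67 with HFB and 5.58, 5.87 and 5.95 with LFB, and the difference between the donor effects had an adjusted p of 0.386 in edgeR. Stag2, a cohesin subunit, was higher in LFDHFB by 0.44 ± 0.17 (edgeR adjusted p = 0.975), with 7.14, 7.18 and 7.51 log2 CPM against 6.99, 6.70 and 6.83.

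Among genes nearest LFDLFB-exclusive regions, the cytoskeletal linker Dst (0.55 ± 0.19), Ppp1r9a (0.44 ± 0.17) and Ppp3r2 (5.61 ± 1.47) had the smallest p with RNA higher in LFDHFB. Ppp3r2 was barely detected, at -3.16, -1.21 and 1.1 log2 CPM against -3.50, -4.47 and -4.47. Lower in LFDHFB were Nme2, a nucleoside diphosphate kinase, at -0.39 ± 0.14, Acot7, an acyl-CoA thioesterase, at -0.31 ± 0.15, and BC026585 at -0.53 ± 0.29. Near LFDHFB-exclusive regions, Bhlha15, a transcription factor of secretory cells whose promoter was in the set (400, 800 and 1400 bp), was at 0.95, 0.40 and -0.48 log2 CPM in LFDHFB and 1.57, 1.79 and 1.52 in LFDLFB, and Mia1 at -0.79 ± 0.37. The adjusted p of each of these 10 genes, Tfdp2 and Stag2 included, was 0.975 in edgeR.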

How the data were processed

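ChIP-seq peak lists of isolated colon epithelial cells and RNA-seq counts of cells scraped from the colon were used. For each library the authors aligned reads to mm9 with Bowtie 0.12.8, kept unique, de-duplicated reads and called peaks per library, with SICER 1.1 for H3K27ac (window and gap 200 bp, FDR 0.001) and H3K4me1 and with HOMER for HNF4α. The deposited lists give the start and end of peaks with no score, signal or reads, so their depth is unknown and intervals cover counting error only. The deposited RNA-seq table holds raw read counts per gene (STAR 2.5, featureCounts 1.5.0-p1).

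Peaks sharing 1 bp were merged in python 3.11.15 and annotated with protein-coding genes of GENCODE vM1, and sequence was read from NCBIM37 (mm9). Widths were tested with limma 3.58.1 and RNA with edgeR 4.0.16 (TMM, filterByExpr, 12 libraries in 4 groups), with Benjamini-Hochberg adjustment; log2 CPM carry edgeR's prior count. DESeq2 1.42.0 was an alternative. Fits were tested on simulated data. The read-based differential test of the study could not be run on peak lists. Named regions were the 10 per direction with the most bases under peaks, up to 8 at promoters, those with 1 pattern in both diets, those nearest a listed gene, genes with 2 such regions, and the 5 smallest p per direction of RNA and width. The samples and gene lists were chosen with earlier results of these data known.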

Additional observations from a re-analysis of the deposited data

How the results depend on the processing

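Leaving out 1 library at a time moved the difference in peak number from -2652 to 404, that in covered length from -12.26 to -0.21 Mb, the within-minus-between Jaccard index from -0.0033 to 0.0017, the difference of shares in HFD-fed recipients from 1.85 to 11.30 points and that in long-term mice from -6.11 to -2.16 points, and the exclusive regions from 192 to 516 (LFDHFB) and from 506 to 1149 (LFDLFB), which then had to be in 2 of 2 libraries of the reduced group. A peak in at least 2 of 3 and 0 of 3 libraries gave 1096 and 1860 regions, and 3 of 3 with at most 1 of 3 gave 628 and 1087. Requiring peaks to cover 50% of a region turned the HFD-fed difference to -1.17 points (p = 0.900, exact permutation test), and leaving out peaks under 600 bp, chosen after seeing the data, turned the difference of donor effects on peak number to -52. Within 10 kb, 49 and 76 genes remained nearest to an exclusive region. Of 60 named exclusive regions, 59 stayed exclusive without peaks under 600 bp and 42 with peaks up to 1000 bp apart merged; over all exclusive regions that merging kept 87 of 135 and 206 of 270.

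No RNA or width call was made under any alternative run, with the caveat that DESeq2 gave 15 genes higher and 12 lower at an unadjusted p under 0.001. Centring library means, chosen after seeing the data, gave 558 wider and 550 narrower regions at an unadjusted p under 0.05. Replicate numbers did not pair the samples: deviations of libraries with 1 number correlated at 0.242, -0.544 and -0.484 over genes and at -0.001, -0.016 and -0.001 over widths. With the replicate block the peak number difference of -822 had p = 0.750 and the covered length difference of -5.27 Mb p = 0.500 in exact sign-flip permutation tests, and RNA and width kept 0 calls.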

Other observations

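Further gene groups were described in the RNA libraries of the low-fat fed recipients, and none of their members passed an adjusted p of 0.05. Of 10 AP-1 and ATF3 genes, 9 had a negative log2 fold change, against 46.5% of all genes tested, and Junb (-0.50 ± 0.16 SE) and Jund (-0.61 ± 0.17 SE) had an unadjusted edgeR p under 0.05 with lower RNA in LFDHFB, as had 1.72% of all genes; the list's median was -0.33, against 0.02 over all genes. Jund was at 7.74, 7.92 and 7.36 log2 CPM in LFDHFB and 8.29, 8.10 and 8.47 in LFDLFB, without overlap, although promoters of both genes had a peak in all 6 libraries. Of 18 tested genes of xenobiotic metabolism and efflux, 4 had an unadjusted p under 0.05 with higher RNA in LFDHFB and 0 with lower RNA, against 2.01% and 1.72% of all genes. They were Fmo5, a flavin monooxygenase (6.58, 7.10 and 8.53 against 6.40, 6.26 and 6.30 log2 CPM), the efflux pump gene Abcb1a, Ahr, the aryl hydrocarbon receptor, and Cyp2c65, and the list's median was 0.13.

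A single library weighed on several of these values. LFDHFB replicate 3 was the highest of the 6 for Fmo5, Abcb1a, Ahr, Cyp2c65, Ppara, Angptl4, Chga and Chgb, and it was the lowest for Slc26a3, at 9.93 log2 CPM against 10.94 to 12.01 in the other 5. The summed level of the 10 smooth muscle markers was 5408 CPM in that library, against 2105 to 4645 CPM in the other low-fat fed recipients, and that of 10 enteric neuron and glia markers 326 CPM against 51.4 to 179 CPM. It was also the highest for the mesothelium and adipocyte markers, at 929 CPM against 124 to 371 CPM, and the lowest for the epithelial markers, at 11731 CPM against 15514 to 17875 CPM. Their part in these results was not tested.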
